A study of Homo sapiens with 6 samples.

Results

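The 9 genes described here are ones that pathologists and cell biologists use to recognise neuroendocrine cells, or that are tied to that state, and were followed in 22Rv1 prostate cancer cells after knockdown of MED12. They were the granin genes CHGA, CHGB and SCG2, the vesicle gene SYP, the enolase gene ENO2, the adhesion gene NCAM1, the transcription factor genes INSM1 and REST, and the neuropeptide gene GAL. The 9 genes were selected by symbol out of 62703 counted genes, with earlier results of the same comparison known. GAL in particular was picked because its difference between the groups was among the larger decreases. The siMED12 against siCtrl values of the 9 genes are therefore given as a description, without p-values. Of the 9 genes, 8 passed the low-count filter, which kept 17901 genes, and NCAM1 did not.

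The libraries were made from poly(A) RNA of 22Rv1, an established human prostate cancer line. One group received 25 pmol of a non-targeting siRNA pool (siCtrl, n = 3) and the other the same amount of a pool against MED12 (siMED12, n = 3), 24 hours after plating. Both groups had fresh medium 6 hours later and were collected on day 3, and no other drug or allele distinguished them. All libraries came from this line, and the labels do not say whether replicates were separate cultures. The authors state 3 or more biological replicates for their experiments, unless they note otherwise. The p-values measure only the spread between these libraries.

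In normal prostate, neuroendocrine cells are rare epithelial cells that store peptides and amines in dense-core granules and release them on stimulation. Granins pack the granule core, synaptophysin lies in the membrane of small vesicles, and peptides such as galanin are cut from precursors inside the granules. Prostate cancers can gain these features under hormonal therapy. INSM1 is a zinc-finger factor of the neuroendocrine lineage, whereas REST is a repressor that keeps neuronal and neuroendocrine genes silent in other cells by binding a DNA element named RE1 and recruiting histone-modifying partners. MED12, a subunit of the Mediator kinase module, is known to link REST to the histone methyltransferase G9a, the product of EHMT2.

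Depth was even, with 16136699 to 17012788 counts per library. MED12 itself, the targeted gene, lay at 67.8, 77.7 and 72.6 CPM (counts scaled to the TMM-adjusted library size) in siCtrl replicates 1, 2 and 3 and at 23.9, 14.97 and 30.1 CPM in siMED12, a log2 fold change of -1.66 ± 0.23 (SE). The label of the 9 genes was checked against other cell types. The luminal keratin genes KRT8 and KRT18 averaged 822.5 and 523.6 CPM in siCtrl against 615.3 and 414.3 CPM in siMED12. EPCAM averaged 83.7 against 76.4 CPM, and CDH1 went the other way, from 436.2 to 544.5 CPM. These 4 epithelial markers summed to 1749 to 2001 CPM in siCtrl and to 1564 to 1738 CPM in siMED12 without overlap. The 8 prostate luminal markers differed in both directions, and their sums overlapped (1807 to 2132 CPM in siCtrl, 1721 to 1940 CPM in siMED12). The part of these differences in the results below was not tested. Basal KRT5 and KRT14 had no count, all 3 basal, all 3 endothelial and all 4 immune markers stayed below 1 CPM, and summed stromal markers were 26.7 to 37.6 CPM in siCtrl against 27.5 to 41.4 CPM in siMED12, 3 of those 6 staying below 1 CPM. The 9 genes together summed to 425 to 480 CPM in siCtrl against 403 to 456 CPM in siMED12. This sum includes REST, a repressor of such genes, at a mean of 106.5 CPM in siCtrl against 136.8 CPM in siMED12. It is therefore not a measure of neuroendocrine marker level. The list was unevenly expressed. In siCtrl, ENO2, GAL and SYP lay in percentiles 94.05, 83.16 and 78.01 of the tested genes by level per length, whereas CHGA had 13 to 40 counts per library and NCAM1 at most 3, so that the full marker set was not present in these cells.

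Sequences around the start sites are shown because REST acts through RE1, and because the CHGA promoter carries a well-known cAMP response element. Promoter entries of RefSeq (GRCh38.p14) were matched for 4 of the 9 genes, CHGA, SYP, ENO2 and REST. An RE1-type motif was searched on both strands as TCAGCACC, any 2 bases, then GGACAG, within 1000 bases of the start on either side, with at most 1 mismatch over the 14 letters compared. Capitals mark the motif letters.
CHGA (chr14:92923522-92923542, plus strand, intron): ttTCAGCACCgcGGACAGcgc
SYP (chrX:49200123-49200143, minus strand, intron): ctCCAGCACCgtGGACAGagc
The CHGA match was exact and lay 374 to 389 bases after the start. The SYP match lay 52 to 67 bases after the RefSeq start, which is 25 bases inside the Gencode gene start used for the coordinates given later, and carried T1C, counted from the first letter of the motif with the motif's base first. No match was found in these windows of ENO2 or REST. Across 35116 windows of the same length, 65 (0.185%) held an exact match and 216 (0.615%) held one with at most 1 mismatch. The element TGACGTCA, the same on both strands, was present in 1 of the 4 promoter windows (250 bases before to 50 bases after the start), against 649 of 35116 (1.85%).
CHGA (chr14:92923085-92923114, plus strand, promoter): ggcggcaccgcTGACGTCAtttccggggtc
It lay 54 to 47 bases before the CHGA start. A match of letters is a description and not a bound site, and binding was not measured here.

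Levels can be compared between genes only per length, and were taken as RPKM (CPM per kilobase of the union of a gene's exons). In siCtrl, ENO2 had the highest level at 43.2 ± 3.15 RPKM (SD, n = 3), which placed it in percentile 94.05 of the tested genes. GAL followed at 17.7 ± 2.34 RPKM, then SYP at 13.4 ± 1.71 and REST at 11.3 ± 1.09 RPKM. The ranges of SYP (11.95 to 15.3) and REST (10.2 to 12.4) overlapped, so that their order was not resolved, whereas the lowest GAL library (15.9) lay above the highest SYP library. Per kilobase of the longest transcript instead, GAL (27.6 to 35.2) and SYP (24.4 to 31.2) overlapped in siCtrl. CHGB reached 6.28 ± 0.62 RPKM. INSM1 at 2.12 ± 1.22 and SCG2 at 1.39 ± 0.96 RPKM overlapped, and CHGA was lowest of the 8 tested genes at 0.46 ± 0.21 RPKM, in percentile 12.06. In siMED12, GAL at 6.47 ± 0.07 RPKM lay below ENO2 (39.1 ± 3.50), REST (14.5 ± 1.15) and SYP (11.7 ± 0.98), and REST lay above SYP in every library (13.3 to 15.5 against 11.1 to 12.8 RPKM). The order of REST and SYP in siMED12 depended on the length used, since per longest transcript REST (16.9 to 19.8) lay below SYP (22.7 to 26.2).

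**Figure D1:**
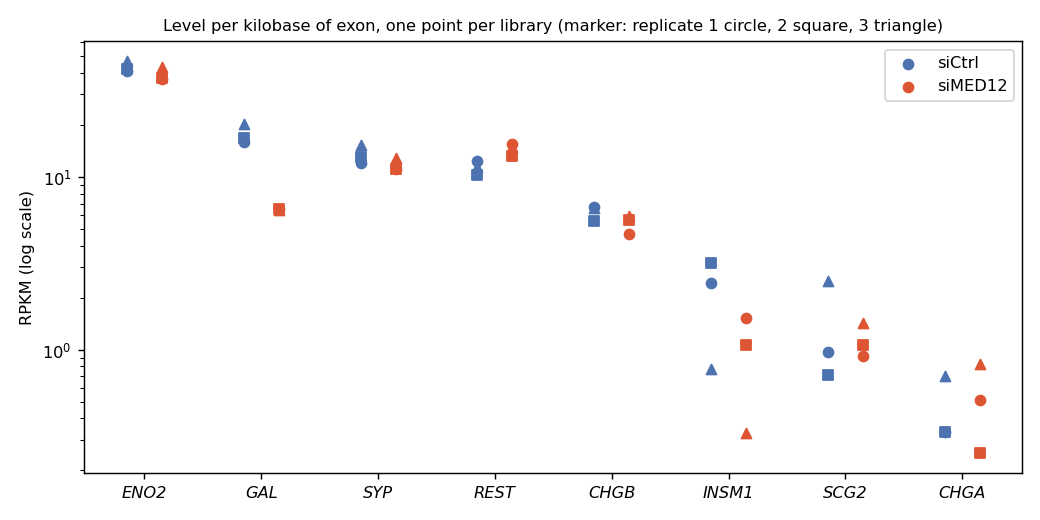
Level of the 8 tested genes in RPKM on a log axis, 1 point per library, siCtrl in blue and siMED12 in red, with the replicate number given by the marker. ENO2 stands highest at 40.7 to 46.8 RPKM in siCtrl and CHGA lowest at 0.33 to 0.71 RPKM, and GAL lies above SYP and REST in siCtrl and below both in siMED12 by this length.

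GAL encodes the precursor of galanin, a secreted neuropeptide that acts on G protein-coupled receptors. The gene (ENSG00000069482.7, chr11:68683779-68691175, plus strand, GRCh38) had 347, 345 and 433 counts in siCtrl replicates 1, 2 and 3 and 143, 144 and 133 counts in siMED12. This corresponds to 20.6, 21.8 and 26.4 CPM against 8.49, 8.42 and 8.33 CPM. All siMED12 libraries lay below all siCtrl libraries, and the 3 siMED12 values were nearly equal. The mean went from 22.95 ± 3.04 to 8.41 ± 0.08 CPM (SD, n = 3), with a fitted log2 fold change of -1.45 ± 0.16 (SE) that 45 of the 17901 tested genes exceeded in the same direction. Compared within replicate numbers, GAL differed by -58.9%, -61.4% and -68.5%. Leaving out 1 library at a time gave log2 fold changes of -1.54 to -1.34. The galanin receptor genes were nearly silent: GALR1 had 0 counts in all 6 libraries, GALR2 had 1 to 11 counts and GALR3 had 2 to 14, and none of them entered the test.

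Granins are acidic proteins of the granule core, and CHGA, CHGB and SCG2 differed little between the groups in relation to their spread. CHGB (ENSG00000089199.10, chr20:5911510-5925353, plus strand) supplied 67.3% to 84.2% of the summed RPKM of these 3 genes in each library. It had 29.9, 24.7 and 29.1 CPM in siCtrl against 20.7, 25.0 and 26.3 CPM in siMED12, and the groups overlapped. Its log2 fold change was -0.22 ± 0.14 (SE), and -0.14 without siMED12 replicate 1. CHGA (ENSG00000100604.13, chr14:92923150-92935285, plus strand) rested on 13 to 40 counts per library. Its values were 1.01, 1.01 and 2.13 CPM in siCtrl against 1.54, 0.76 and 2.50 CPM in siMED12, with a log2 fold change of 0.20 ± 0.50. The same replicate number was high in both groups, and the sign of the fold change turned to -0.26 without siMED12 replicate 3. SCG2 (ENSG00000171951.5, chr2:223596940-223602361, minus strand), the secretogranin II gene, had 2.50, 1.83 and 6.40 CPM in siCtrl against 2.38, 2.75 and 3.69 CPM in siMED12. Its log2 fold change of -0.29 ± 0.46 rested on siCtrl replicate 3, without which it was 0.43. For CHGA and SCG2 a difference was not detectable given the spread between these libraries, and CHGA also had few counts.

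Among the genes used in pathology for vesicles and metabolism, SYP and ENO2 were slightly lower in siMED12 at each replicate number. SYP, which encodes synaptophysin (ENSG00000102003.12, chrX:49187815-49200218, minus strand), had 83.4, 90.3 and 106.7 CPM in siCtrl against 77.6, 77.8 and 89.6 CPM in siMED12. The groups overlapped, and the log2 fold change was -0.19 ± 0.12 (SE) and -0.09 without siCtrl replicate 3. With the replicate number as a term in the fit it was -0.19 ± 0.05. Within replicate numbers the difference was -6.92%, -13.9% and -16.0%. ENO2 (ENSG00000111674.9, chr12:6913745-6923698, plus strand) encodes gamma enolase, a glycolytic enzyme known as neuron-specific enolase. Its values were 174.3, 180.5 and 200.1 CPM in siCtrl against 157.2, 160.1 and 184.5 CPM in siMED12, again overlapping, with a log2 fold change of -0.15 ± 0.10, and of -0.09 without siCtrl replicate 3. Within replicate numbers ENO2 differed by -9.77%, -11.3% and -7.82%, and its log2 fold change with the replicate term was -0.15 ± 0.04. In SYP, 68 exon bases overlap SYP-AS1 on the opposite strand, which had 0.06 to 0.37 CPM. NCAM1 (ENSG00000149294.17, chr11:112961275-113278436, plus strand), the gene of the neural cell adhesion molecule CD56, had 1, 3 and 0 counts in siCtrl and 2, 0 and 1 in siMED12. It did not exceed the floor that 3 counts set in any library (0.18 to 0.19 CPM), and no fold change was computed.

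**Figure D2:**
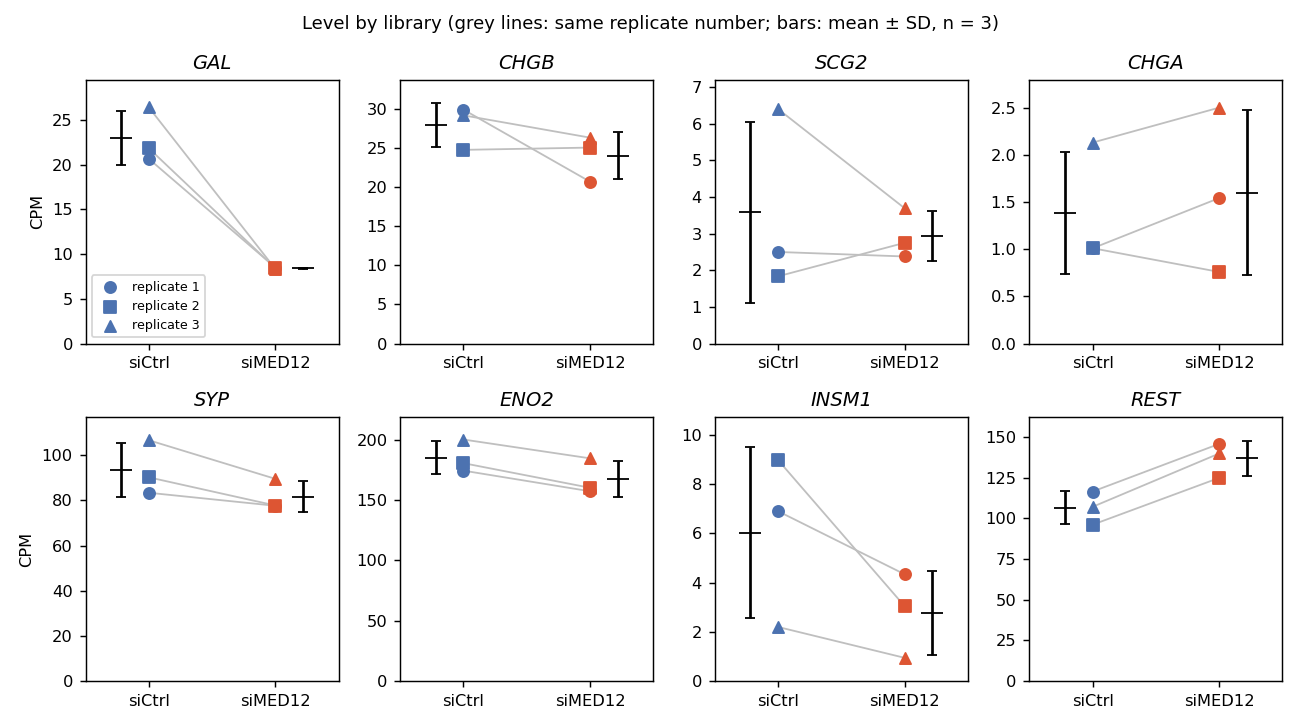
Level in CPM of each of the 8 tested genes by library, with grey lines joining libraries of the same replicate number and bars giving the mean ± SD (n = 3). GAL lies at 8.33 to 8.49 CPM in the siMED12 libraries, REST is higher and SYP, ENO2 and INSM1 are lower along each line, and CHGA, CHGB and SCG2 have lines of differing direction.

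The 2 transcription factor genes differed in opposite directions. INSM1 (ENSG00000173404.5, chr20:20368104-20370949, plus strand) had 6.90, 8.98 and 2.19 CPM in siCtrl against 4.34, 3.04 and 0.94 CPM in siMED12. The groups overlapped because replicate 3 was low in both. Within replicate numbers INSM1 differed by -37.2%, -66.2% and -57.2%, and the log2 fold change was -1.11 with an SE of 0.60 that narrowed to 0.21 (-1.12) when the replicate number was a term in the fit. It was -0.71 without siCtrl replicate 2, -0.71 without siMED12 replicate 3 and -1.60 without siMED12 replicate 1. REST (ENSG00000084093.19, chr4:56907876-56966808, plus strand) had 116.4, 96.0 and 107.0 CPM in siCtrl against 145.7, 124.8 and 139.8 CPM in siMED12. Every siMED12 library lay above every siCtrl library. The mean went from 106.5 ± 10.2 to 136.8 ± 10.8 CPM, a log2 fold change of 0.36 ± 0.11, or 0.36 ± 0.05 with the replicate term. The within-number differences were 25.2%, 29.9% and 30.6%. REST shares 81 exon bases with NOA1 on the opposite strand, which averaged 55.9 CPM in siCtrl against 51.6 CPM in siMED12. These are bulk libraries, in which fewer cells of a type and less RNA per cell cannot be told apart.

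Over the 8 tested genes, 6 log2 fold changes were below 0 and 2 were above, with a median of -0.21, beside a median of 0.02 over all tested genes, of which 47.6% were below 0. With treatment as the only term, edgeR's quasi-likelihood F-test with Benjamini-Hochberg adjustment over all genes called 1 of the 8 lower (GAL) and 0 higher, and at an unadjusted p below 0.05 it was 1 lower and 1 higher, beside 7.93% and 7.65% of all tested genes. The DESeq2 Wald test and limma likewise called 0 higher. Of all tested genes, 0.413% were called lower and 0.151% higher. With the replicate number as a block, 4 of the 8 were called lower (GAL, SYP, ENO2 and INSM1) and 1 higher (REST), where 16.2% and 17.1% of all genes were called. All siMED12 libraries lay below all siCtrl libraries for GAL alone, as for 10.9% of all genes, and above them for REST alone, as for 11.2%. In all 3 pairs of the same number, 4 of the 8 were lower and 1 was higher, beside 27% and 30.6% of all genes. As the genes were chosen by this contrast in part, nothing is read from these counts. The GAL call was lost in 4 of 6 fits that left out 1 library, and it held without siCtrl replicate 3 and without siMED12 replicate 3.

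**Figure D3:**
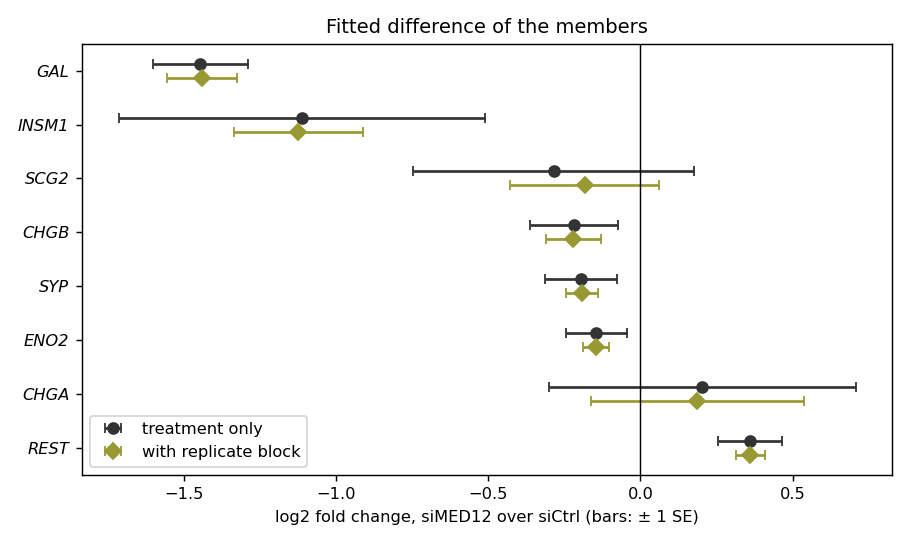
Fitted log2 fold change of siMED12 over siCtrl for the 8 tested genes, circles from the treatment-only fit and diamonds with the replicate block, bars ± 1 SE. The estimates move by less than the bars between the fits, most in SCG2 (-0.29 to -0.18), and the bars shorten, in INSM1 from 0.60 to 0.21 and in REST from 0.11 to 0.05.

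The choice of genes did not use differences among replicate numbers, so these could be tested. The F-test of the replicate terms in edgeR's quasi-likelihood fit, adjusted by Benjamini-Hochberg over all genes, called 6 of the 8 genes, beside 47.1% of all tested genes. INSM1 differed most: replicate 3 was lower than replicate 1 by a log2 difference of -1.89 and than replicate 2 by -1.89 (adjusted p = 4.5e-07), while replicates 1 and 2 were alike at 0.004. SCG2 went the other way, with replicate 3 above replicate 1 by 1.04 (adjusted p = 0.0016). CHGA was also higher in replicate 3, by 0.86 over replicate 1 and 1.38 over replicate 2 (adjusted p = 0.020). SYP (0.28, adjusted p = 0.00086) and ENO2 (0.21, adjusted p = 0.0017) were modestly higher in replicate 3 than in replicate 1. REST was lowest in replicate 2, by -0.25 relative to replicate 1 (adjusted p = 0.0019). GAL (adjusted p = 0.40) and CHGB (adjusted p = 0.42) did not pass. Without siCtrl replicate 3, 3 genes passed (ENO2, INSM1 and REST), without siMED12 replicate 3 it was 4 and without siMED12 replicate 2 it was 5. The share of mitochondrially encoded counts moved with the number, at 4.43%, 6.31% and 10.0% in siCtrl and 4.79%, 6.03% and 10.1% in siMED12. Its part in these differences was not tested, and the labels do not say what the number stands for.

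Around the 9 genes, 230 further genes in 8 lists were examined, written from general knowledge of granules, lineage factors, REST partners, REST-repressed genes, neuropeptides, their receptors, relatives of the 9 genes and other tumour markers. Earlier results of these data were known when the lists were written. Adjusted p-values of list genes are therefore not tests of genes chosen without the data. Of the 230 genes, 145 were tested and 85 were too low. The treatment-only test called 2 lower, VGF among them, and 1 higher (ALCAM), and with the replicate block it was 33 lower and 33 higher. For each list below, the background is the share of all tested genes: 0.413% lower and 0.151% higher by the treatment-only call, 7.93% and 7.65% at an unadjusted p below 0.05, and 16.2% and 17.1% with the block. The median log2 fold change was -0.01. The lists as a whole thus divided evenly, with 73 values below 0 and 72 above.

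The granule list held 30 genes for the making, processing and release of dense-core granules, of which 24 were tested, 1 was called lower and 0 higher. At an unadjusted p below 0.05, 1 was lower and 5 were higher, and with the block it was 4 lower and 9 higher. The median was 0.10. VGF, a granin-like precursor of secreted peptides, was the most abundant of the list at 354.1 RPKM in siCtrl, in percentile 99.47 of the tested genes. It had 791.7, 973.2 and 1082 CPM in siCtrl against 336.7, 324.0 and 404.9 CPM in siMED12. The log2 fold change was -1.42 ± 0.14 (edgeR quasi-likelihood, Benjamini-Hochberg adjusted p = 0.027), lower in 3 of 3 pairs. VGF kept this call only without siCtrl replicate 3 or siMED12 replicate 3 among the fits leaving out 1 library. SYT4, a synaptotagmin of granules and the second most abundant gene of the list at 58.4 RPKM, differed by -0.10 ± 0.18 (adjusted p = 0.85).

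REST works with the CoREST and SIN3 complexes, and its own transcript is altered by the neural splicing factor SRRM4. All 25 genes of this list were tested and none was called, with 1 lower and 4 higher at an unadjusted p below 0.05 and 2 lower and 8 higher with the block, and the median was 0.08. SRRM4 went from 236.5 ± 41.4 to 144.3 ± 40.6 CPM (log2 fold change -0.71 ± 0.21, adjusted p = 0.16 by edgeR's quasi-likelihood test), the groups did not overlap, and the blocked value of -0.73 ± 0.05 was called lower. The CoREST genes split. RCOR3 differed by 0.37 ± 0.10 (adjusted p = 0.15) and RCOR2 by -0.34 ± 0.17 (adjusted p = 0.41), called higher and lower with the block at 0.37 ± 0.06 and -0.34 ± 0.10. ZNF217, a zinc-finger partner of CoREST, differed by 0.67 ± 0.42 (adjusted p = 0.50, blocked 0.66 ± 0.08, called higher), a value that was 0.15 without siMED12 replicate 1, 0.39 without siCtrl replicate 3 and 1.07 without siCtrl replicate 1. The most abundant were HMG20B, a LSD1 complex subunit, at 0.26 ± 0.11 (adjusted p = 0.29, called higher with the block at 0.26 ± 0.04), and HDAC1, a histone deacetylase, at 0.09 ± 0.09 (adjusted p = 0.70). EHMT2, the G9a gene, was 128.0 ± 12.7 CPM in siCtrl against 128.8 ± 7.86 CPM in siMED12 (log2 fold change 0.01 ± 0.10, adjusted p = 0.98), and its sign changed with the library left out.

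Of 37 neuronal genes known as REST-repressed, 24 were tested. One was called lower and 0 higher, with 4 lower and 1 higher at an unadjusted p below 0.05, 7 lower and 2 higher with the block, and a median of -0.07. The most abundant were STMN3, a microtubule regulator, at -0.02 ± 0.09 (adjusted p = 0.94) and MAPK8IP2, a kinase scaffold, at -0.14 ± 0.10 (adjusted p = 0.58), which the block called lower at -0.13 ± 0.04.

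Lineage factors other than INSM1 were mostly low. Of 25, 13 were tested, with 0 called (0 lower and 2 higher at an unadjusted p below 0.05, 2 lower and 3 higher with the block) and a median of 0.20. NEUROD1 had 0 counts in each library, while POU3F2 had 8.90 to 14.1 CPM, and both were picked with their values in view. INSM2, a paralog of INSM1, went from 1.77 ± 0.76 to 3.02 ± 1.04 CPM (log2 fold change 0.77 ± 0.42, edgeR quasi-likelihood adjusted p = 0.44) and ISL1, a homeobox factor, from 1.45 ± 0.23 to 2.53 ± 0.84 CPM (0.80 ± 0.35, adjusted p = 0.32). Both were called higher with the block, at 0.79 ± 0.27 and 0.77 ± 0.30. HES6, a basic helix-loop-helix factor, differed by -0.33 ± 0.22 (adjusted p = 0.54) and ONECUT2 by -0.15 ± 0.14 (adjusted p = 0.68), both called lower with the block at -0.34 ± 0.10 and -0.15 ± 0.06.

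Neuropeptide genes other than GAL numbered 32, of which 13 were tested. None was called, 2 were lower and 0 higher at an unadjusted p below 0.05, and with the block it was 5 lower and 0 higher, with a median of -0.21. CALCB, a calcitonin gene-related peptide gene, had 8.89 ± 1.21 CPM in siCtrl against 4.22 ± 0.82 CPM in siMED12 without overlap (log2 fold change -1.07 ± 0.23, edgeR quasi-likelihood adjusted p = 0.081, called lower with the block at -1.07 ± 0.17). NMB, the neuromedin B gene, was the most abundant at 38.5 RPKM in siCtrl and differed by -0.38 ± 0.21 (adjusted p = 0.44), and NMU, the neuromedin U gene, by -0.21 ± 0.12 (adjusted p = 0.45). The block called both lower, at -0.38 ± 0.07 and -0.21 ± 0.08. Of 28 peptide receptor and accessory genes, 8 were tested and 0 called, with 0 lower and 1 higher at an unadjusted p below 0.05, 0 lower and 3 higher with the block, and a median of 0.14. RAMP1, which forms the CGRP receptor with its partner, went from 123.4 ± 13.7 to 158.4 ± 16.5 CPM without overlap (0.36 ± 0.12, adjusted p = 0.19, called higher with the block at 0.36 ± 0.05). The partner gene CALCRL, in the same list, was low, with 8 to 17 counts per library (0.50 to 1.075 CPM). EDNRA, an endothelin receptor gene, differed by 0.67 ± 0.45 (adjusted p = 0.54, called higher with the block at 0.63 ± 0.21), but by 0.10 without siMED12 replicate 3 and 0.40 without siCtrl replicate 2. SORT1, the sortilin gene, differed by -0.05 ± 0.11 (adjusted p = 0.90).

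A further list held family relatives of the 9 genes, such as enolase and synaptophysin-like genes. It also held adhesion and related genes outside those families, so its counts do not measure sharing within families. Of the 18 genes in this list, 14 were tested, and 0 were called lower and 1 higher. At an unadjusted p below 0.05, 1 was lower and 4 were higher. With the block it was 3 lower and 5 higher, and the median was 0.04. ENO1, the ubiquitous enolase gene, went from 769.3 ± 78.9 to 536.2 ± 45.8 CPM without overlap (log2 fold change -0.52 ± 0.11, edgeR quasi-likelihood adjusted p = 0.081, called lower with the block at -0.52 ± 0.04). ENO3, the muscle enolase gene, differed by -0.15 ± 0.14 (adjusted p = 0.70), close to the -0.15 of ENO2. SYPL1, a synaptophysin-like gene, differed by 0.12 ± 0.10 (adjusted p = 0.65), and SYNGR2, a synaptogyrin gene, by 0.25 ± 0.11 (adjusted p = 0.32, called higher with the block at 0.25 ± 0.04). NCAM2, unlike NCAM1, was well expressed at 88.3 ± 6.93 CPM in siCtrl against 103.9 ± 5.27 CPM in siMED12, without overlap (0.23 ± 0.10, adjusted p = 0.29, called higher with the block at 0.24 ± 0.05). ALCAM, the gene of adhesion molecule CD166, rose from 290.4 ± 7.82 to 419.0 ± 6.28 CPM (0.53 ± 0.08, adjusted p = 0.040), higher in 3 of 3 pairs, a call that was lost without any 1 of the 6 libraries at 0.50 to 0.55.

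Of 35 other neuroendocrine tumour markers, 24 were tested and 0 called. At an unadjusted p below 0.05, 5 were lower and 2 higher, with the block it was 10 lower and 3 higher, and the median was -0.17. KIF5C, a neuronal kinesin, went from 30.6 ± 1.84 to 18.4 ± 2.92 CPM without overlap (log2 fold change -0.73 ± 0.15, edgeR quasi-likelihood adjusted p = 0.079, blocked -0.73 ± 0.10). CEACAM6 differed by -0.97 ± 0.50 (adjusted p = 0.41, blocked -1.03 ± 0.41) at 1.54 ± 0.30 CPM in siCtrl. KCND2, a potassium channel gene, differed by 0.57 ± 0.22 (adjusted p = 0.27, blocked 0.57 ± 0.19) and ETV5, an ETS factor gene, by 0.42 ± 0.18 (adjusted p = 0.31, blocked 0.41 ± 0.10). The most abundant were PEG10, a retrotransposon-derived gene, at 1416 ± 265.2 CPM in siCtrl against 1168 ± 208.5 CPM in siMED12 (-0.28 ± 0.17, adjusted p = 0.50, blocked -0.28 ± 0.03), and STMN1, the stathmin gene, at 0.16 ± 0.10 (adjusted p = 0.51, blocked 0.16 ± 0.04). The blocked fit called all 6 of these genes.

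Of 27 named genes from the lists called with the block, 12 had a treatment-only log2 fold change that moved by over 1.5 times when 1 library was left out, ZNF217 and EDNRA most. Among the lineage factors the ranges were -0.52 to -0.16 for HES6, -0.25 to -0.06 for ONECUT2 and 0.43 to 1.01 for INSM2. Among the tumour markers they were -1.53 to -0.59 for CEACAM6, 0.28 to 0.58 for ETV5, -0.43 to -0.15 for PEG10 and 0.10 to 0.24 for STMN1. The others were NMB (-0.54 to -0.21), SYNGR2 (0.14 to 0.32) and MAPK8IP2 (-0.21 to -0.05), and none of the 12 changed sign.

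**Figure D4:**
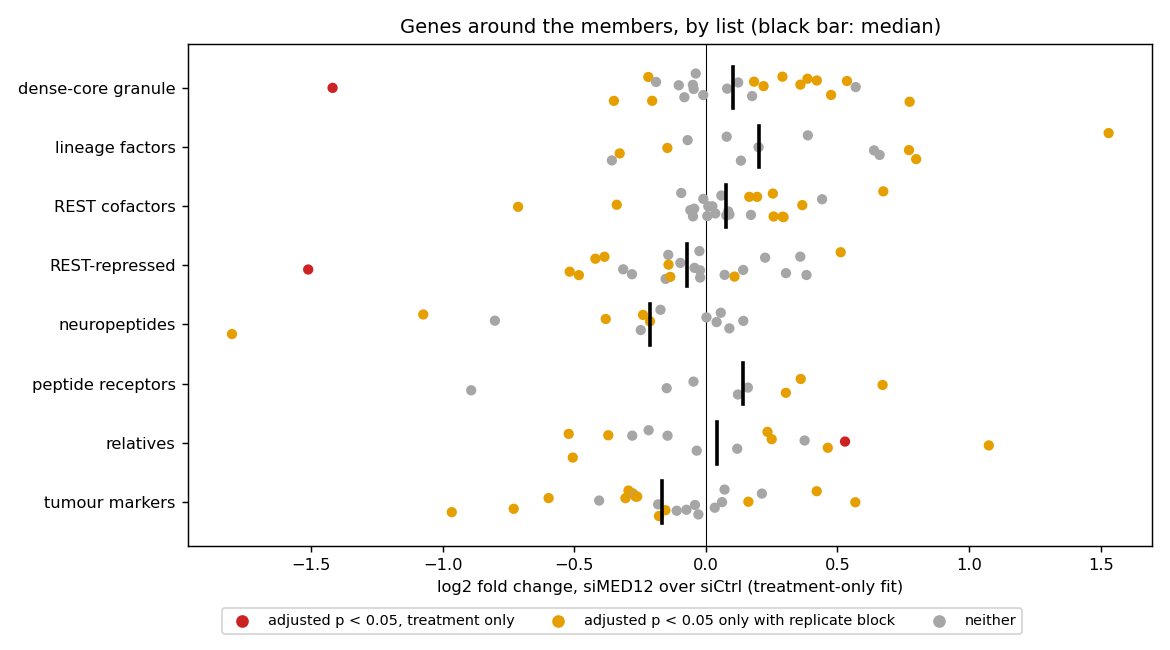
Log2 fold change of siMED12 over siCtrl for the 145 tested genes of the 8 lists, 1 point per gene, with a black bar at each median. Red points passed the treatment-only test (VGF and 1 other gene lower, ALCAM higher), orange points passed only with the replicate block, and the medians lie between -0.21 for neuropeptides and 0.20 for lineage factors.

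Genes whose pattern over the 6 libraries was most like that of GAL were sought among 10666 genes with a mean of at least 10 CPM, by Pearson's correlation of log2 CPM, as a description over libraries that share 2 treatments. CENPM, a centromere protein gene, was closest (r = 0.998), at 47.3 ± 2.24 CPM in siCtrl against 34.95 ± 0.43 CPM in siMED12. CFC1, a gene of a Nodal co-receptor, followed (r = 0.995, 29.4 ± 2.50 to 12.6 ± 0.16 CPM), and then FAM216A (r = 0.995, 39.6 ± 4.32 to 20.5 ± 0.92 CPM). All 3, like GAL, had a smaller SD in siMED12 than in siCtrl, which follows from choosing them by correlation with GAL. Their Spearman coefficients with GAL were 0.83, 0.77 and 0.77, and by that measure none of the 3 was among the closest genes.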

How the data were processed

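Strand-specific poly(A) RNA-seq libraries of 22Rv1 cells (siCtrl, n = 3, and siMED12, n = 3) were analysed, with groups and replicate numbers taken from the labels. The authors used Rsubread in R to align and count reads against Gencode release 43 (GRCh38) and deposited raw counts for 62703 genes and log2 CPM values for 17901. The log2 CPM values were recomputed from the deposited counts (prior count 2) and differed by at most 4.96e-09. The Rsubread version and the treatment of multi-mapping reads and of strand in counting are not given in the sources used here, so that reads of overlapping genes may be shared. Counts were tested with edgeR 4.0.16 in R 4.3.3 (expression filter, TMM, quasi-likelihood F-test, default settings, two-sided, Benjamini-Hochberg adjustment, threshold 0.05), with treatment as the only term. Standard errors were derived from the fold change and F. Coordinates and exon lengths came from Gencode release 44, and an unversioned gene ID linked 62686 genes.

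Deviations from group means correlated at 0.532, 0.373 and 0.643 for libraries that share a number, against -0.46 to -0.0233 for the rest. As deviations cancel within each group, the negative values follow in part from the positive ones. By the positive values the numbers pair the libraries, and the blocked value is given beside results it changes. The p-values of the treatment-only fit do not use this pairing. No replicates were duplicates (chi-square per degree of freedom 10.3 to 40.7). The 9 genes, the lists and the tests were chosen with earlier results of these data known. Named genes were the 9, MED12, 8 fixed relatives, partners and receptors, up to 3 called genes per list and direction with a mean of at least 1 CPM (if none, up to 2 called with the block), the 2 most abundant of each list, and the 3 most correlated with GAL. Alternatives were other scalings and filters, the DESeq2 1.42.0 Wald test, limma 3.58.1 on the deposited log2 CPM, the block, leaving out each library, transcript length and Spearman's coefficient. The edgeR fits were tried on counts simulated without a replicate effect. That trial does not check them under the pairing of replicate numbers seen here. Results of some named genes are not reported here.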

Additional observations from a re-analysis of the deposited data

How the results depend on the processing

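With the replicate block, 4 of the 8 tested genes were called lower and 1 higher, and 33 of 145 list genes in each direction, beside 16.2% and 17.1% of all tested genes. With treatment only the counts were 1, 0, 2 and 1, beside 0.413% and 0.151%. Leaving out 1 library gave 0 to 1 of the 8 genes called lower, 0 to 1 of the wider lists lower and 0 to 0 higher, and 3 to 6 genes that differed among replicate numbers. The wider lists had 7 lower and 3 higher with no filter beyond 1 count, 8 lower and 4 higher by the DESeq2 Wald test, and 2 higher when a mean of 1 CPM was required. Per kilobase of the longest transcript, siCtrl levels were 30.65 for GAL, 0.698 for CHGA, 11.3 for CHGB, 27.3 for SYP, 65.4 for ENO2, 0.0143 for NCAM1 and 14.5 RPKM for REST, in the same order of siCtrl means, but with overlapping GAL and SYP libraries. In siMED12 SYP (23.9) then exceeded REST (18.6). By Spearman's coefficient, 0 of the 3 genes most like GAL remained among the closest. Leaving out 1 library, the log2 fold change of 4 named genes near 0 turned sign: it ran from -0.29 to 0.0041 for SYT4, from -0.11 to 0.0214 for STMN3, from -0.14 to 0.0475 for SORT1 and from -0.0895 to 0.0677 for EHMT2. It also turned for STMN3 by library size only (0.0177) and for EHMT2 when a mean of 1 CPM was required (-0.0092). CHGA ran from -0.26 to 0.65 and SCG2 from -0.60 to 0.43. The cause of these shifts was not tested. Of 546 single-gene values under the alternatives, 489 kept the main direction and side of the threshold or lay within the replicate spread, 32 passed the threshold newly, 16 lost it, 8 changed sign and 1 (SCG2 without siCtrl replicate 3) moved beyond the spread. With 3 libraries per group, few counts in CHGA, SCG2 and NCAM1, and a wide spread in CHGA and SCG2, small differences in these genes could not be seen.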
